A study of Mus musculus with 16 samples.

Results

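The fibroblast growth factor (FGF) ligands Fgf1, Fgf2, Fgf7, Fgf9 and Fgf18, the receptors Fgfr1, Fgfr2, Fgfr3 and Fgfr4 and the receptor-like gene Fgfrl1 were described in cortical bone. These 10 genes were found by their symbols among the 36829 features listed for every mouse. RNA was sequenced from the shaft of the bone, with the ends removed and the marrow flushed out, in 16 female C57Bl/6 mice of 11 weeks. HLU mice (n = 8) spent 7 days with the hindlimbs held off the floor by a tail harness, and control mice (n = 8) bore weight normally. The strain, sex and age were common to both groups, and each mouse gave 1 library. The question was whether removing load from the limb changed transcript abundance in bone.

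Most FGFs are secreted proteins that bind receptor tyrosine kinases together with heparan sulfate. The bound receptors signal through the adaptor Frs2 to the Ras and MAP kinase pathway. In the skeleton, the receptors are made by cartilage cells and by cells of the osteoblast lineage. FGFR3 is known as a brake on growth of the long bones, FGF18 as a ligand made in developing bone, and FGFR1 and FGFR2 as receptors that act in osteoblasts. Fgfrl1 encodes a receptor that binds FGFs but lacks the kinase domain.

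The unit was RPKM, a read count corrected for the length of the gene and for the size of the library. The number of reads used as the divisor ran from 7067512 to 21363584 per mouse, with the smallest libraries in control mouse 2 and HLU mouse 5. Markers of osteocytes (Mepe and Dmp1 the most abundant of 5) and osteoblasts (Ibsp and Col1a2 the most abundant of 7) were present in every mouse. Blood cell markers were present as well, with summed RPKM of 5 granulocyte genes between 17226 and 37154 in control mice and between 12162 and 43709 in HLU mice, S100a8 and S100a9 being the most abundant. Over all features the tests called 188 higher and 808 lower in HLU mice, and 381 higher and 394 lower after median-of-ratios rescaling, which aligns the middle of the features between libraries. In bulk tissue, fewer cells of a type and less RNA per cell cannot be told apart.

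Fgfr2 was the most abundant of the 10 genes and Fgfr4 the least. The median over the 16 mice was 8.20 RPKM for Fgfr2, followed by 5.57 for Fgf7, 5.51 for Fgfr1, 5.36 for Fgfrl1 and 4.74 for Fgf1. Lower levels were found for Fgf2 (median 1.38 RPKM), Fgfr3 (1.25), Fgf18 (0.540), Fgf9 (0.458) and Fgfr4 (0.0799). Neighbours in this order were compared within mice by a two-sided exact sign-flip permutation test, adjusted over the 9 neighbouring pairs. The levels differed at 4 steps, between Fgfr2 and Fgf7, Fgf1 and Fgf2, Fgfr3 and Fgf18, and Fgf9 and Fgfr4, each in the same direction in 16 of 16 mice (adjusted permutation p = 6.87e-05 for each). The other 5 neighbouring pairs did not differ beyond their spread, with adjusted permutation p between 0.412 and 0.804.

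**Figure D1:**
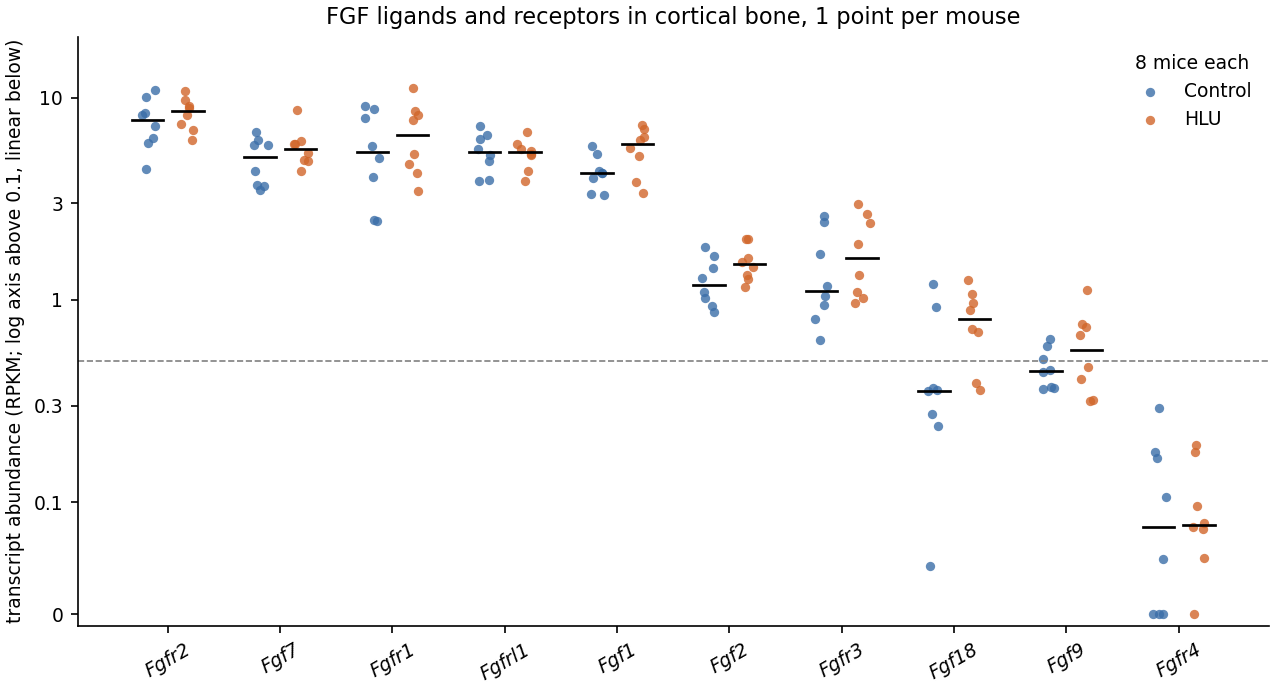
Transcript abundance of the 10 genes (RPKM, log axis above 0.1 and linear below) in 8 control and 8 HLU mice, 1 point per mouse, with a black line at each group's median and a dashed line at the mean of 0.5 RPKM required for testing. The groups overlapped for every gene, and the levels fell from a median of 8.20 RPKM for Fgfr2 to 0.0799 RPKM for Fgfr4.

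The order depends on the gene lengths behind the RPKM. The length that the values imply was 1.99 times that of the combined GENCODE M21 exons for Fgf1 and 0.467 times for Fgf2. With the combined exon lengths, Fgfr2 was again first and Fgfr4 last. Fgfr2 then stood above Fgf7 in 14 of 16 mice (adjusted sign-flip permutation p = 0.00154). Fgfr1 stood above Fgfrl1 in 15 of 16 (adjusted sign-flip permutation p = 0.000275), a step that did not differ by the deposited values. The median of Fgf1 then rose to 9.45 and that of Fgfr1 was 9.42, both beside 9.46 for Fgf7, and Fgfr3 stood above Fgf2 in 16 of 16 mice. The changes between groups do not depend on these lengths, apart from the weight of the added 0.1 RPKM.

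The groups were compared by limma on log2(RPKM + 0.1). This method fits a linear model to each feature and moderates the variances across features. A feature needed a mean of at least 0.5 RPKM, and 16973 features passed, among them 9 of the 10 genes (all but Fgfr4). A gene was called at an unadjusted p under 0.05 with at least a 1.2-fold change, or at a Benjamini-Hochberg adjusted p under 0.1 over all 16973 features with the same fold. Adding 0.1 understates the change of low genes.

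By the first call, Fgf18 was the 1 gene of 9 that was higher in HLU mice, and 0 of 9 were lower. Over all features 1.11% were called higher and 4.76% lower. By the adjusted call, 0 of 9 passed, as did 0% of all features, where limma gave 1049 features an unadjusted p under 0.05 at any fold and a lowest adjusted p of 0.256. Fgf18 and Fgf9 averaged under 0.5 RPKM in control mice and passed the filter only through the HLU group. The log2 fold change lay above 0 in 8 of the 9 genes, and in 6 of the 7 that reached 0.5 RPKM in both groups, against 32.1% of all features. The median was 0.28 over the 9 genes, and also over those 7, beside -0.10 over all features. After median-of-ratios rescaling it was 0.37 over the 9 genes and -0.01 over all features. These counts and medians describe genes that passed the filter and are not a test.

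**Figure D2:**
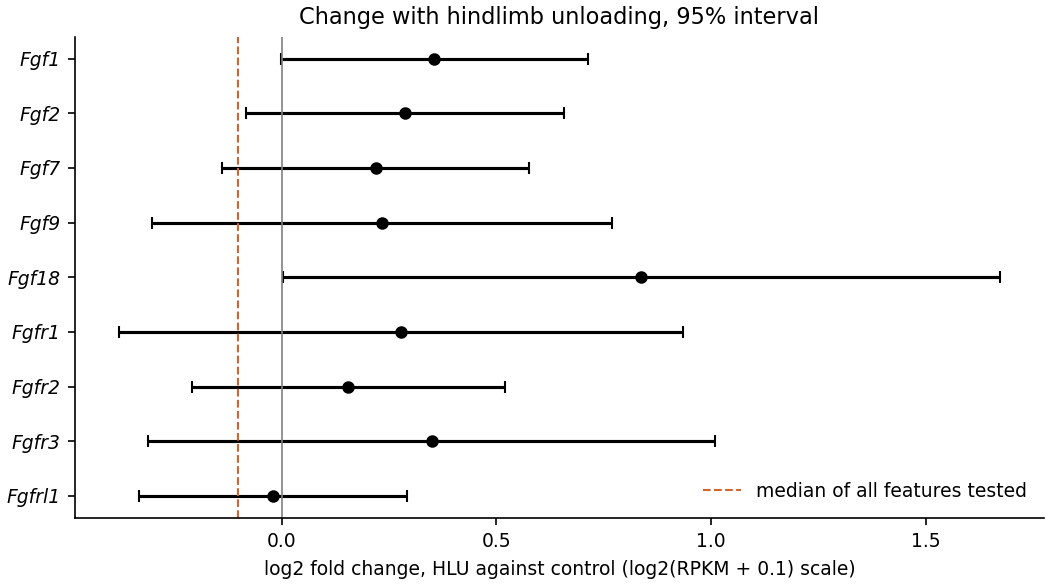
Log2 fold change of 9 genes, HLU against control (horizontal axis, on the log2(RPKM + 0.1) scale), with the 95% interval from limma as a bar, n = 8 mice per group. The interval of Fgf18 lies just above 0, the other 8 include 0, and the dashed line marks the median of all features tested at -0.10.

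Among the ligands, Fgf18 acts on cartilage and bone-forming cells. GENCODE M21 on GRCm38, used for all positions here, places it on chromosome 11 from 33117430 to 33147400. Its level in control mice ran from 0.0427 to 1.201 RPKM with a median of 0.356, and in HLU mice from 0.359 to 1.25 RPKM with a median of 0.804. All 8 HLU mice lay above the control median, but only 1 exceeded every control mouse, so the groups overlapped. The means were 0.469 ± 0.387 RPKM in control mice against 0.791 ± 0.314 RPKM after HLU (SD, n = 8 each). The log2 fold change was 0.84 (standard error 0.40, limma p = 0.0493, limma adjusted p = 0.744), while p was 0.0541 by a two-sided exact permutation test (12870 splits of the 16 mice). These values rest on 1 to 17 reads per control mouse and 7 to 27 per HLU mouse. The limma p stayed under 0.05 in 4 of the 16 fits that each left out 1 mouse (without control mouse 7 or 8, or HLU mouse 1 or 2) and ended without any of the other 12, with the log2 fold change between 0.59, without control mouse 1, and 1.05, without control mouse 8. Without control mouse 2 and HLU mouse 5, the shallowest libraries, it was 0.72 and also missed the unadjusted threshold, and with a pseudocount of 1 it was 0.31 and missed it. Without the filter on low values the unadjusted call stood.

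Fgf1 binds all of the FGF receptors and lies on chromosome 18 from 38838673 to 38929472. In control mice it ran from 3.28 to 5.74 RPKM with a median of 4.25, and in HLU mice from 3.39 to 7.36 RPKM with a median of 5.91. Of the 8 HLU mice, 6 lay above the control median and 4 above every control mouse. The log2 fold change of 0.35 (standard error 0.17) missed the unadjusted threshold (exact permutation p = 0.0587, limma p = 0.0517). After median-of-ratios rescaling it was 0.45 and passed that threshold, but it was 0.19 and missed it with 1 covariate, the percentage of a library's reads that lay on no listed feature. Between 307 and 1485 reads per mouse fell on Fgf1.

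Fgf2, the basic FGF that is stored in bone matrix, lies on chromosome 3 from 37348346 to 37410108. Its exons overlap those of Nudt6 on the opposite strand and of Gm43439, and as no source says that strand was used in counting, their reads cannot be told apart. The level was 1.27 ± 0.351 RPKM in control mice against 1.54 ± 0.317 RPKM after HLU (SD, n = 8 each), with 7 of 8 HLU mice above the control median. Its log2 fold change was 0.29 (standard error 0.18, exact permutation p = 0.0967, limma adjusted p = 0.747), within the spread between mice.

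Fgf7, or keratinocyte growth factor, is made by mesenchymal cells and lies on chromosome 2 from 126034658 to 126091185. By the deposited values it was the most abundant ligand by the median over the 16 mice and over the control mice, but Fgf1 stood above it in the HLU mice. It averaged 4.98 ± 1.32 RPKM in control mice against 5.75 ± 1.32 RPKM after HLU (SD, n = 8 each). The ranges, 3.51 to 6.78 and 4.34 to 8.65 RPKM, overlapped, with HLU mouse 4 above every control mouse and 4 control mice below every HLU mouse (log2 fold change 0.22, standard error 0.17, exact permutation p = 0.217, limma adjusted p = 0.764). Without HLU mouse 4 it was 0.13.

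Fgf9, on chromosome 14 from 58070547 to 58112720, acts with Fgf18 in skeletal growth. Control mice ran from 0.363 to 0.639 RPKM with a median of 0.443, and HLU mice from 0.317 to 1.12 RPKM with a median of 0.567. The HLU values spread more widely, with a coefficient of variation of 46.3% against 22.6% in control mice, and 4 HLU mice exceeded every control mouse while the lowest values were also from HLU mice. The log2 difference of 0.23 (standard error 0.25, exact permutation p = 0.303, limma adjusted p = 0.813) was within the spread, and it was 0.10 without HLU mouse 4.

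Among the receptors, Fgfr1 lies on chromosome 8 from 25513654 to 25575718, with exons that overlap Gm16159 on the opposite strand, and as for Fgf2 their reads cannot be told apart. Control mice ran from 2.45 to 9.09 RPKM with a median of 5.41, and HLU mice from 3.45 to 11.2 RPKM with a median of 6.50. The coefficient of variation was 46.9% in control and 40.1% in HLU mice, and the log2 difference of 0.28 (standard error 0.31, exact permutation p = 0.413, limma adjusted p = 0.818) did not exceed the spread between mice. It was 0.13 without control mouse 1, 0.13 without control mouse 2, 0.16 without HLU mouse 7 and 0.074 without the 2 smallest libraries.

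The GENCODE M21 entry of Fgfr2 runs on chromosome 7 from 130162451 to 133123350 and shares exon positions with Ctbp2. Reads at the shared positions cannot be told apart. The combined exon length used for Fgfr2 comes from this same entry and takes in those positions. A shorter length would raise the level of Fgfr2 on combined exons and its ratio to Fgfr1. Fgfr2 had 7.70 ± 2.16 RPKM in control mice against 8.40 ± 1.53 RPKM after HLU (SD, n = 8 each). The HLU range, 6.15 to 10.8 RPKM, lay inside the control range of 4.44 to 10.9 RPKM (log2 fold change 0.16, standard error 0.17, exact permutation p = 0.395, limma adjusted p = 0.816). It was 0.051 without control mouse 6, 0.10 without HLU mouse 5 and 0.23 without control mouse 4.

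Fgfr3, on chromosome 5 from 33721674 to 33737068, overlaps exons of G630022F23Rik on the opposite strand, and their reads cannot be told apart either. The level of Fgfr3 was 1.41 ± 0.746 RPKM in control mice against 1.79 ± 0.807 RPKM after HLU (SD, n = 8 each), and 2 HLU mice exceeded every control mouse. The groups did not differ beyond their spread (log2 difference 0.35, standard error 0.31, exact permutation p = 0.296, limma adjusted p = 0.773). The difference was 0.22 without control mouse 6, 0.23 without HLU mouse 7 and 0.22 without the 2 smallest libraries.

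Fgfr4 lies on chromosome 13 from 55152640 to 55168759 and was near the limit of detection. No read was found in 3 control mice and 1 HLU mouse, and the highest value was 0.291 RPKM, from 26 reads. A count of 0 allows up to 3 reads, which for Fgfr4 corresponds to between 0.0291 and 0.0878 RPKM in the 16 libraries, for counting error only. In a fit without the filter the log2 fold change was 0.08 (exact permutation p = 0.818, limma adjusted p = 0.961).

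Fgfrl1, on chromosome 5 from 108692382 to 108706924, varied little between mice, with the highest of the 16 values 1.88 times the lowest. It had 5.43 ± 1.21 RPKM in control mice against 5.30 ± 0.901 RPKM after HLU (SD, n = 8 each), with 4 of 8 HLU mice above the control median. Its change of -0.02 on the log2 scale (95% interval -0.33 to 0.29, exact permutation p = 0.880, limma adjusted p = 0.974) was smaller than the spread, and its sign turned with the scaling, to 0.07 after median-of-ratios rescaling.

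The makeup of the kinase receptors was also compared, since a share within a mouse does not depend on the scaling between libraries. Fgfr2 made up 53.3% ± 10.5 of the summed Fgfr1 to Fgfr4 RPKM in control mice against 51.0% ± 8.65 after HLU (SD, n = 8 each). Fgfr1 made up 37.1% ± 9.24 and 38.3% ± 7.09, Fgfr3 9.11% ± 2.20 and 10.2% ± 2.28, and Fgfr4 0.532% ± 0.539 and 0.551% ± 0.270. None of the 4 shares differed beyond the spread between mice, with two-sided exact permutation p of 0.625 for Fgfr2, 0.759 for Fgfr1, 0.350 for Fgfr3 and 0.928 for Fgfr4 (adjusted p = 0.928 for each).

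**Figure D3:**
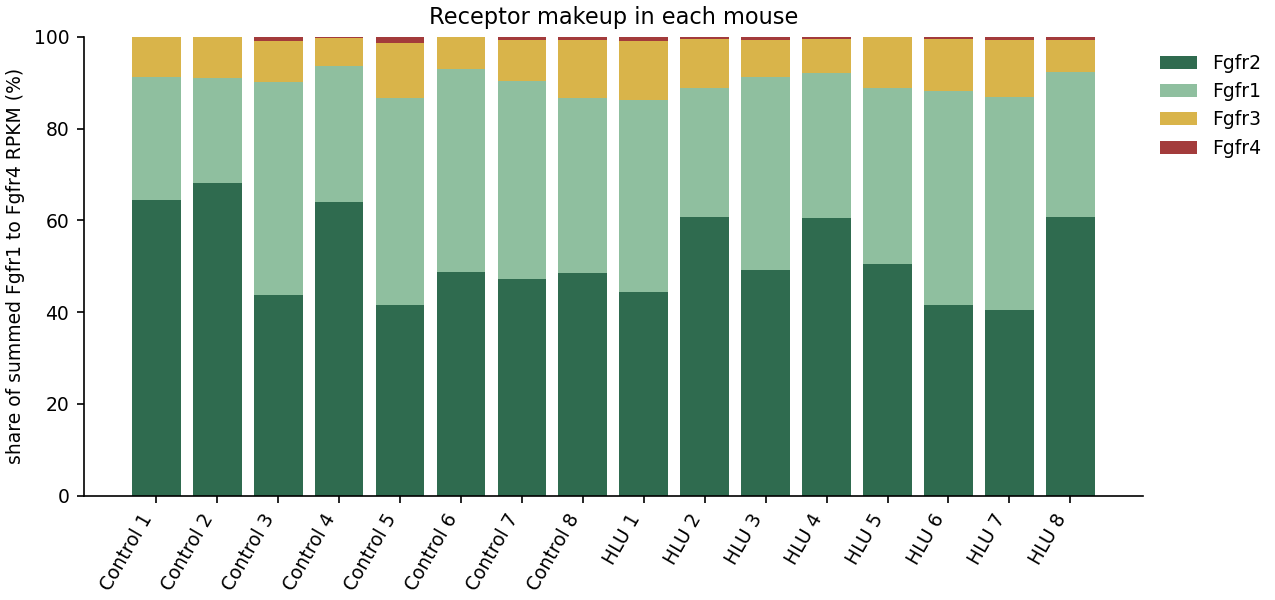
Share of Fgfr1, Fgfr2, Fgfr3 and Fgfr4 in their summed RPKM (percent, stacked to 100) in each of the 16 mice. Fgfr2 ranges from 40.4% to 68.0% and Fgfr1 from 23.0% to 46.5%, with no separation of control from HLU mice.

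Mice within a group differed more in this makeup than the groups did. The ratio of Fgfr2 to Fgfr1 ran from 0.871 to 2.95 over the 16 mice, and Fgfr2 exceeded Fgfr1 in 12 of 16, 6 in each group. On the combined exon lengths it ran from 0.743 to 2.52, and Fgfr2 exceeded Fgfr1 in 9 of 16.

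Covariation between mice was measured on log2(RPKM + 0.1) with each group's mean removed, over the 36 pairs of the 9 tested genes and with 100000 permutations of mice within groups. The correlation was positive in 29 pairs. The 1 pair past an adjusted p of 0.05 by Pearson's r was Fgfr1 and Fgfr3 (r = 0.846, permutation p = 0.00028, adjusted p = 0.0101; Spearman's rho = 0.832, permutation p = 0.00032, adjusted p = 0.0115; n = 16). Within the groups Pearson's r was 0.818 (control) and 0.891 (HLU), and 0.881 without the 2 mice farthest from the median of Fgfr1. By Spearman's rho 6 pairs passed, which joined Fgfr3 with Fgfr1, Fgf1, Fgfr2 and Fgfrl1, and Fgfr1 with Fgf1 and Fgfrl1, with an adjusted permutation p of 0.0359 for the 5 besides Fgfr1 and Fgfr3. The next pair by Pearson's r was Fgf1 and Fgfr3 (r = 0.710, permutation p = 0.00283, adjusted p = 0.0509). The lowest r was that of Fgf7 and Fgfrl1 at -0.617 (permutation p = 0.0206, adjusted p = 0.106).

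**Figure D4:**
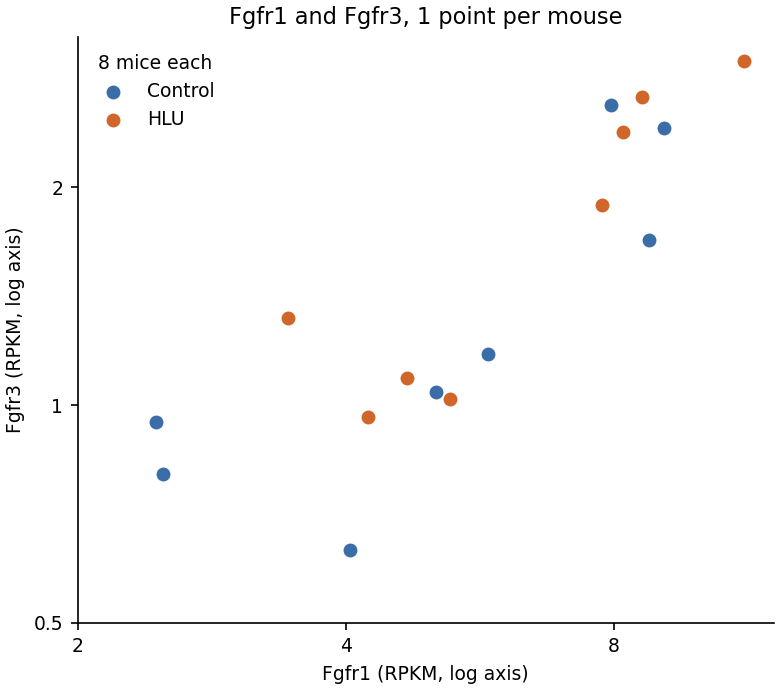
Fgfr1 (horizontal) against Fgfr3 (vertical) in RPKM on log axes, 1 point per mouse, 8 control and 8 HLU. The 7 mice with the most Fgfr1, at 7.76 RPKM or above, are the 7 with the most Fgfr3.

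The share of the divisor that fell outside the listed features moved with several of these genes. It was 11.2% ± 4.28 in control mice against 15.0% ± 5.29 after HLU (SD, n = 8 each; exact permutation p = 0.133). Within groups it correlated with Fgfr1 (r = 0.760, permutation p = 0.00092, adjusted p = 0.00828 over 9 genes; rho = 0.732, adjusted permutation p = 0.0196; n = 16), and r was 0.660 without the 2 farthest mice. Fgf1, Fgf2, Fgfr3 and Fgfrl1 had r between 0.556 and 0.639 (adjusted permutation p between 0.0420 and 0.0491), and none of these 4 passed by Spearman's rho. With this share removed as well, r of Fgfr1 and Fgfr3 was 0.721 (adjusted permutation p = 0.0767) and 0 of 36 pairs passed. With it as a covariate the log2 fold change of Fgfr1 was -0.13, that of Fgfr3 0.015, that of Fgf1 0.19 and that of Fgf18 0.67, and none passed a threshold.

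The genes were then set against marker scores of 12 cell types or tissues, each the mean over a list of log2(RPKM + 0.1) centred on the gene's mean. Of the 108 relations, 21 passed an adjusted permutation p of 0.05 by Pearson's r, 16 positive and 5 negative, and 20 of these also passed by Spearman's rho (the exception was Fgf9 with erythroid markers). Fgfr1 had 7 of them, Fgfr3 5, Fgf9 3, Fgf1 and Fgfrl1 2 each, Fgf7 and Fgfr2 1 each, and Fgf2 and Fgf18 0. After median-of-ratios rescaling 32 passed. Several scores were low or high in the same mice, so the relations are not separate from each other. Control mouse 2 had osteocyte, osteoblast and chondrocyte scores of -1.08, -0.711 and -0.898, and HLU mouse 5 had 0.730, 0.499 and 0.451. This did not hold in every mouse, as HLU mouse 4 had 0.120, -0.314 and -1.04. Covariation between the scores was not tested.

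**Figure D5:**
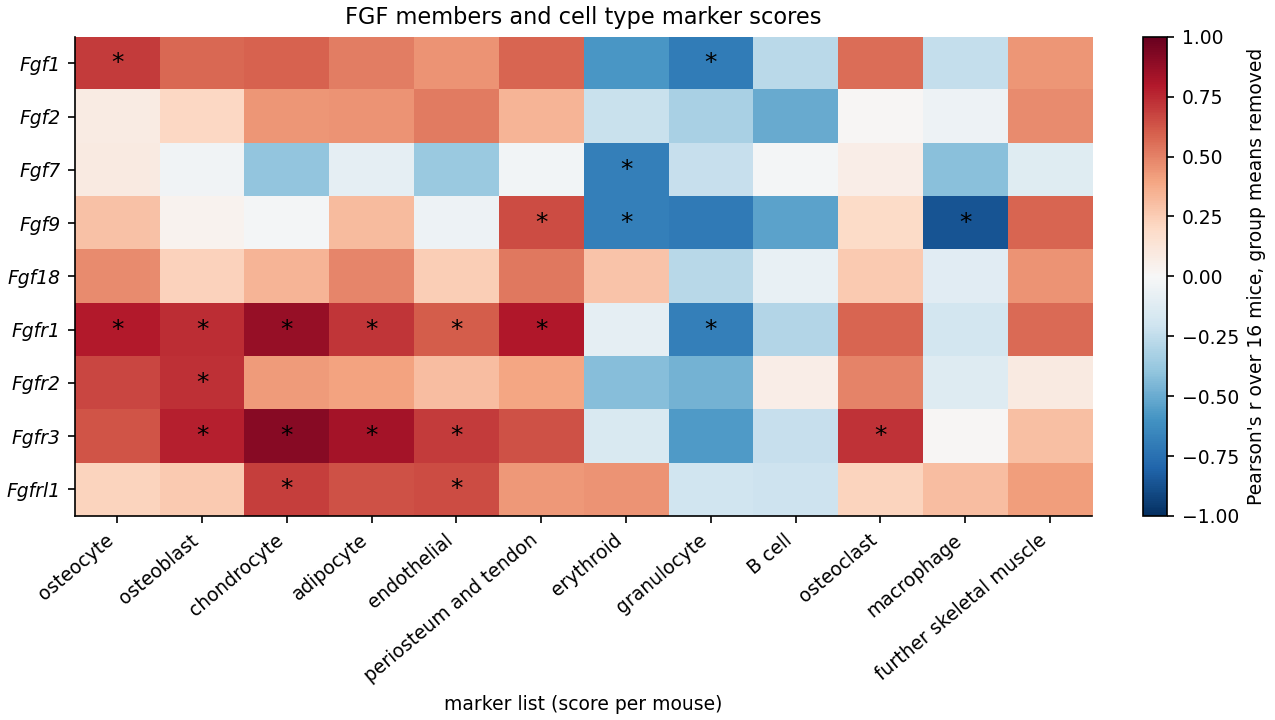
Pearson's r (colour, -1 to 1) of each of 9 genes (rows) with the score of each marker list (columns) over 16 mice with group means removed. A star marks an adjusted permutation p under 0.05, and 12 of the 21 stars are in the rows of Fgfr1 and Fgfr3.

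By Pearson's r, Fgfr3 varied most closely with the cartilage matrix score (r = 0.911, rho = 0.847, adjusted permutation p = 0.00405 and 0.00648, r = 0.878 without the 2 farthest mice), while its highest rho was with the adipocyte score (0.865). Fgfr1 also varied with the cartilage matrix score (r = 0.867, rho = 0.865, adjusted permutation p = 0.00405 and 0.00648). That score holds 3 of 6 listed chondrocyte genes, Col2a1, Comp and Acan, and Comp is also made in tendon. Their list summed to between 11.0 and 37.6 RPKM in control mice and between 8.12 and 34.5 RPKM in HLU mice, with none of the 6 at 0 in every mouse. Cartilage cells or tendon as a source of Fgfr1 and Fgfr3 reads was not tested.

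All of Fgfr1, Fgfr2 and Fgfr3 varied with the osteoblast score, with r of 0.735, 0.730 and 0.776 (adjusted permutation p of 0.0241, 0.0226 and 0.0153). Fgfr2 passed with no other list by Pearson's r, but passed with the osteocyte score by Spearman's rho (rho = 0.679, adjusted permutation p = 0.0472), and after median-of-ratios rescaling with the osteocyte, erythroid and granulocyte scores too. With the osteoblast score removed too, r of Fgfr1 and Fgfr3 fell to 0.645 (adjusted permutation p = 0.0897), and the 1 pair that passed was Fgf7 and Fgfr2 (r = 0.792, adjusted permutation p = 0.00648). Fgfr1 also varied with the osteocyte score (r = 0.791, adjusted permutation p = 0.0156) and the periosteum and tendon score (r = 0.803, adjusted permutation p = 0.0132), and Fgf1 with the osteocyte score (r = 0.698, adjusted permutation p = 0.0156). The adipocyte score passed with Fgfr3 (r = 0.831) and Fgfr1 (r = 0.713), the endothelial score with Fgfr3, Fgfrl1 and Fgfr1 (r from 0.609 to 0.699), and the osteoclast score with Fgfr3 (r = 0.722).

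The negative relations were with the macrophage, granulocyte and erythroid scores. Fgf9 varied inversely with the macrophage score, led by C1qb and C1qa (r = -0.863, rho = -0.759, adjusted permutation p = 0.00405 and 0.0215), with r of -0.717 in control and -0.910 in HLU mice. The granulocyte score varied inversely with Fgf1 (r = -0.695) and Fgfr1 (r = -0.684), and the erythroid score with Fgf7 (r = -0.680) and Fgf9 (r = -0.682). The erythroid list was also where the groups differed most in calls. In it Hbb-b1, Hbb-b2 and Klf1 of 9 were lower in HLU mice, beside 4.76% of all features, with a score difference of -0.60 (exact permutation p = 0.0740). The reads of Hbb-b1 and Hbb-b2, close copies of each other, are uncertain. Mepe of the osteocyte list and Fabp4 of the adipocyte list were called higher, beside 1.11% of all features, and 0 genes were called in the other 9 lists. With the erythroid, granulocyte and B cell scores as covariates, Fgf18 had a log2 fold change of 1.46 and Fgfr1 of 0.67, both past the unadjusted threshold. In the same fit Fgf7 had -0.03 and Fgf9 0.0049. Calls over all features also rose with these covariates, to 1355 higher and 1620 lower, from 188 and 808 without them. The calls of Fgf18 and Fgfr1 in this fit therefore do not set them apart from other features.

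The genes most like each member between mice were sought among 11381 features with a unique symbol and a mean of at least 2 RPKM, and are given as a description over 16 mice that share their libraries. Fgfr1 was most like Npr2, a natriuretic peptide receptor (r = 0.979), Mmp2, a matrix metalloproteinase (r = 0.965), and Mef2d (r = 0.963). Fgfr3 was most like Srpx2 (r = 0.956), P4ha3, a subunit of collagen prolyl hydroxylase (r = 0.942), and Serpinh1, a collagen chaperone (r = 0.939). Fgfr2 was most like Tanc1 (r = 0.951), Vdr, the vitamin D receptor (r = 0.930), and Epb4.1l2 (r = 0.903). The highest r of Fgfrl1 was with Abhd17a (0.966), followed by Gm17201 and Athl1.

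For the ligands the closest genes had lower correlations. Fgf9 was most like mt-Nd3, mt-Tl2 and mt-Ta, all 3 encoded by mitochondrial DNA (r from 0.884 to 0.898). Fgf7 was most like Slc25a36, Gm4631 and Syap1 (r from 0.881 to 0.902), and Fgf1 most like Ski, Ptprm and Ryk (r from 0.862 to 0.885). Fgf18 was most like Tmem175, Dgkq and Gm12778 (r from 0.853 to 0.891), and Fgf2 most like Siah2, Apopt1 and Gm25413 (r from 0.791 to 0.826). Fgf18 rests on 1 to 27 reads per mouse and Fgf2 on 39 to 123. As the highest r of 11381 candidates, none of these values is a test of shared expression.

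Of the 17 other Fgf genes, not all of which encode secreted ligands, 5 passed the filter. Beside 1.11% of all features, 1 was called higher in HLU mice. This was Fgf6, known for its expression in skeletal muscle. Fgf6, like Fgf14, passed the filter only through the HLU group. It had 0.427 ± 0.396 RPKM in control mice against 1.09 ± 0.586 RPKM after HLU (SD, n = 8 each). It rose by 1.39 on the log2 scale (standard error 0.49, limma p = 0.0114, limma adjusted p = 0.744, exact permutation p = 0.0146), with 7 of 8 HLU mice above the control median and 0 to 40 reads per mouse. Of 15 further muscle genes listed, the 4 present (Tnnc1, Tnnt1, Tnni1 and Myh7) are genes of slow fibres and need not stand for all muscle. They summed to between 6.80 and 249 RPKM in control mice and between 8.43 and 321 RPKM in HLU mice. Fgf6 correlated with their score with r of 0.389 (permutation p = 0.135) and rho of 0.426 (permutation p = 0.110). Fgf22 was at 0 in all 16 mice. Fgf23, the phosphate-regulating hormone of osteocytes, was named after its values had been seen, and had 1.13 ± 1.40 RPKM in control mice against 1.48 ± 0.798 RPKM after HLU (SD, n = 8 each, exact permutation p = 0.212). Its median was 0.703 RPKM in control mice, where the highest value was 4.50 RPKM, and 1.76 RPKM in HLU mice. The log2 fold change was 0.69 (standard error 0.50), on 4 to 131 reads per mouse.

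Of the 24 coreceptors and heparan sulfate genes, 19 were tested and 0 were called in either direction. The lowest limma p were those of Flrt2, which binds FGF receptors (log2 fold change 0.49, exact permutation p = 0.103), and Gpc3, a glypican (0.48, exact permutation p = 0.197). Of 22 signal transducers 20 were tested and 0 called, although Ptpn11, the phosphatase Shp2, was lower by less than 1.2-fold (log2 fold change -0.24, standard error 0.10, exact permutation p = 0.0200, limma adjusted p = 0.744). Of 15 feedback inhibitors and targets 12 were tested. In that list 1 was lower, Dusp5, a phosphatase that acts on ERK, at 1.40 ± 0.317 RPKM in control mice against 1.02 ± 0.312 RPKM after HLU (SD, n = 8 each). Dusp5 thus had a log2 fold change of -0.44, with a standard error of 0.20, an exact permutation p of 0.0325 and a limma adjusted p of 0.744. The median log2 fold change was 0.05 in the coreceptors, -0.10 in the transducers and -0.01 in the feedback genes, beside -0.10 over all features. The counts of calls in these lists stand beside 1.11% of all features called higher and 4.76% called lower, and are not a test.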

How the data were processed

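The libraries were made by the authors with the TruSeq v2 kit and run 8 to a lane; the authors aligned the reads with TopHat2 to mm9 (the build in the submitters' processing notes) and deposited RPKM values for each mouse. Their counting tool, annotation and gene lengths are not given in the sources used here, nor is the lane of each mouse. The authors' own comparison used DESeq2, which needs counts. With it the paper reported some genes higher and some lower after correction for multiple testing. The absence of adjusted calls here holds for the fit used here, and the cause of the difference from the paper was not tested. Here limma 3.58.1 in R 4.3.3 was fitted to log2(RPKM + 0.1) with a variance trend and no covariate, over 16973 features, those averaging 0.5 RPKM or more. Permutation tests used numpy 2.4.6, pandas 2.3.3 and scipy 1.17.1 under Python 3.11.15, and matplotlib 3.10.9 drew the figures. Whole reads were recovered for 16973 of 16973 tested features (100% of them, within 0.0005 of a read) and used for depth and for the voom alternative. No library was a copy of another. The steps were tested on simulated data. Groups came from the sample labels, and p-values measure the spread between these mice.

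Genes and lists were chosen with earlier results of these data known. Named are the 10 genes, pathway genes with an unadjusted p under 0.05 or else the 2 lowest in p, the 2 most abundant genes of a marker list, and the 3 genes most like each member. None of the 7 muscle genes first listed is among the file symbols, so a further list of 15, of which 4 are present, was added. GENCODE M21 on GRCm38 gave positions, overlapping genes and the combined exon lengths of the second ordering.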

Additional observations from a re-analysis of the deposited data

Results flagged for a closer look

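Fgf7 in HLU mouse 4, at 8.65 RPKM, stood apart from the other 7 HLU mice, whose highest value was 6.12 RPKM. The gap made up 0.588 of the range of the group, above the 95% critical value of Dixon's test for 8 mice. Of the 28 groups of values tested, 1 was picked out in this way, and chance alone picks out about 1 in 20. Without this mouse the log2 fold change of Fgf7 was 0.13, against 0.22 with it.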

How the results depend on the processing

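The comparison was repeated under 11 alternatives, 16 fits that each left out 1 mouse, and 3 covariates chosen after seeing the data (the osteoblast score, the further muscle score and the share of reads outside the listed features). The planned muscle covariate was not run, since none of its genes is among the symbols. In all of these 0 members passed the adjusted threshold. The number of members called higher was 2 with the blood cell, further muscle or osteoblast scores as covariates, after median-of-ratios rescaling or quantile normalization, and with voom, and 0 with a minimum mean of 2 RPKM, a pseudocount of 0.01, the share of reads outside the listed features as a covariate, or without the 2 smallest libraries. Leaving out single mice gave 0 to 2. These counts are not a test, since the features called higher also varied with the setting. They numbered 188 in the main fit, 1355 with the blood cell scores and 409 with the further muscle score. After median-of-ratios rescaling they numbered 381, and with a minimum mean of 2 RPKM 106. The second member was Fgfr1 with the blood cell scores and Fgf1 in the other settings with 2. With a pseudocount of 1 the count stayed at 1, but the member called was Fgf1 in place of Fgf18 (0.31).

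Over all features, 1355 were higher and 1620 lower with the blood cell scores, 409 and 1407 with the further muscle score, 381 and 394 after median-of-ratios rescaling, and 460 and 364 after quantile normalization. The number higher was 106 with a minimum mean of 2 RPKM, 391 without a filter, 290 with the osteoblast score and 108 without the 2 smallest libraries. Single mice left out gave 117 (without HLU mouse 7) to 363 (without HLU mouse 2) higher and 471 to 1385 lower. The adjusted threshold was passed by 13 features with the blood cell scores, by 1 with the further muscle score, without a filter, without the trend or with the share of reads outside, and by 0 to 1 without single mice.

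The sign of Fgfrl1 turned with the blood cell scores (0.20), the further muscle score (0.0080), median-of-ratios rescaling (0.070), quantile normalization (0.080) and voom (0.059), and it ran from -0.086 to 0.041 without single mice. The sign also turned for Fgf7 with the blood cell scores (-0.031) and for Fgfr1 with the share of reads outside (-0.13). With Fgfrl1 in the sum, the Fgfr2 share differed by 0.0021 percentage points. Without single mice the Fgfr1 share differed by -0.78 to 2.67 points and the Fgfr4 share by -0.057 to 0.149. The cause of these turns was not tested. Member pairs that passed numbered 5 with the blood cell scores removed, 3 with a pseudocount of 1, 0 with the share of reads outside removed, 1 (Fgf7 and Fgfr2) with the osteoblast score removed and 1 to 5 without single mice, and marker relations numbered 32 after median-of-ratios rescaling.

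The mice share only a replicate number, with correlations of same-numbered mice from -0.166 to 0.510 and 1 of 8 closest to its own number. With the replicate number as a block, 199 features were higher and 840 lower, and Fgf18 kept its call (log2 fold change 0.84). Depth limits Fgf18 and Fgfr4 most.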
